A study of Homo sapiens with 32 samples.

Results

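The genes described here are 36 chaperones, folding enzymes, degradation factors and stress sensors of the endoplasmic reticulum (ER), out of 57773 genes in the count tables. They were selected by gene symbol, with results of these data in view. HERPUD1 was known to be among the genes called under EGF after 24 h, so values of EGF against control at 24 h are given as a description without a test. The set comprises 9 genes of ER-associated degradation (ERAD), 7 sensors or transcription factors, 6 co-chaperones and secreted folding factors, 5 chaperones, 5 enzymes of oxidative folding, 3 parts of the protein translocation channel and the membrane protein WFS1.

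HEK293 is a human embryonic kidney cell line. The cells were transiently transfected with a plasmid for the angiotensin II type 1 receptor (AT1R), so every library, controls included, comes from AT1R-transfected cells kept without serum during stimulation. They stayed untreated (control) or received 1 nmol/l angiotensin II (AII), 10 µg/l epidermal growth factor (EGF) or both (AII+EGF), for 6 h or 24 h. Each condition had 4 libraries, except AII+EGF at 24 h with 3 analysed here. Transient transfection leaves a mixture of cells that took up the plasmid and cells that did not, and in such bulk RNA fewer responding cells and a smaller response per cell cannot be told apart. The labels do not say whether libraries of 1 group came from separate cultures, so p-values measure the spread between libraries, which may be technical.

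Protein folding in the ER depends on chaperones such as HSPA5 (BiP), on disulphide exchange by the protein disulphide isomerases and on the removal of misfolded proteins by ERAD. When unfolded proteins accumulate, the sensors ERN1 (IRE1), ATF6 and EIF2AK3 (PERK) start the unfolded protein response: ERN1 splices XBP1 mRNA, ATF6 is cleaved to a transcription factor, and EIF2AK3 slows translation while favouring ATF4. Their targets carry short promoter elements, named ER stress response elements (ERSE and ERSE-II), and HERPUD1, a membrane protein that organises the ERAD ubiquitin ligase complex, is a well-known target.

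The promoters of the 4 members shown here carry these elements. HERPUD1, HSPA5 and XBP1 were fixed as genes to name, and HYOU1 is one of those named from the 6 h results. The windows are RefSeq sequences of GRCh38.p14, given on the coding strand 5′ to 3′, from 20 bases before the first ERSE, ERSE-II or ATF4 element to 20 bases after the last, and capitals mark elements of these kinds. The HERPUD1 stretch at chr16:56931946-56932055 (plus strand) holds an ATF4 element on the opposite strand followed by an ERSE-II. The stretches of HSPA5 at chr9:125241371-125241429 and XBP1 at chr22:28800583-28800641 (both minus strand) hold an ERSE each. The HYOU1 stretch at chr11:119057254-119057410 (minus strand) holds 2 copies of ERSE-II, both on the opposite strand.
HERPUD1: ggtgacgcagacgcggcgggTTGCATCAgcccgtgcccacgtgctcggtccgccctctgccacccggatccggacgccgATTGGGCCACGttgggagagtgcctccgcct
HSPA5: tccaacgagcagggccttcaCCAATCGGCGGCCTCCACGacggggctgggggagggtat
XBP1: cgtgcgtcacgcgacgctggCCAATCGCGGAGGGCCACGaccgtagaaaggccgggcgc
HYOU1: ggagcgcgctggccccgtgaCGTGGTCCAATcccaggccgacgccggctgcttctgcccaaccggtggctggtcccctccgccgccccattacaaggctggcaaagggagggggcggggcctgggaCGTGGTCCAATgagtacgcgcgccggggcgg

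Of the 36 members, 32 had a RefSeq window, which runs from 250 bases before to 50 bases after the transcription start. DERL1, ERO1L, PDIA3 and DERL3 had none under these symbols. Both strands were searched. ERSE was spelled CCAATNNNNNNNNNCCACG and occurred in 0.0769% of the 35116 windows, and in those of 7 members: HSPA5, XBP1, HSP90B1, CALR, CANX, PDIA6 and CRELD2. ERSE-II was spelled ATTGGNCCACG and occurred in 0.0541% of windows, and in those of 3 members: HERPUD1, HYOU1 and SDF2L1. The ATF4 element TGATGNAA occurred in 3.62% of windows and in those of HERPUD1 and CREB3L2, and the core TGACGTGG of the XBP1 site in 0.729% and in that of HYOU1, where it overlaps the upstream ERSE-II and is not marked by capitals of its own. Thus 10 members carried an ERSE or ERSE-II. MANF, EIF2AK3, EDEM2 and SEC61A1, named like HYOU1 from the 6 h results, had a window but no match to any of these elements. These are letter matches in a fixed window and do not show that a factor binds there.

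**Figure D1:**
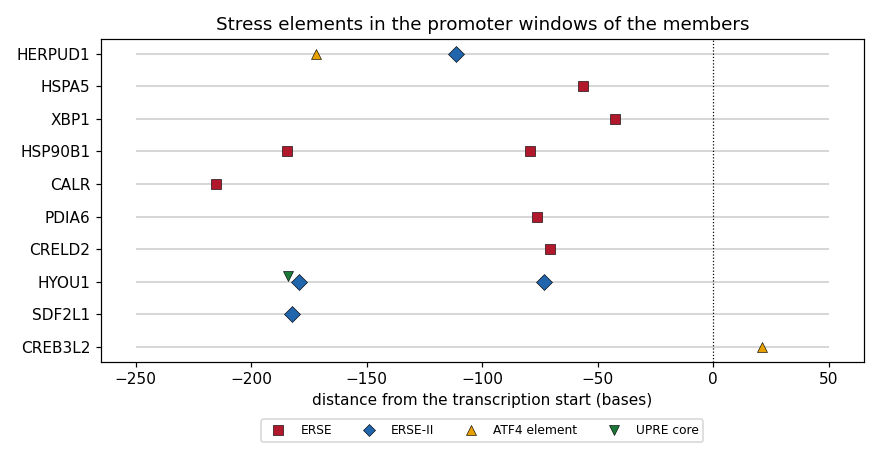
Positions of the searched elements (symbols; red squares ERSE, blue diamonds ERSE-II, yellow triangles ATF4 element, green triangle UPRE core, the XBP1 site) in the promoter windows of 10 members, as distance in bases from the transcription start (dotted line). The ERSE of HSPA5 starts 66 bases and that of XBP1 52 bases before the start, and HERPUD1 has an ATF4 element upstream of an ERSE-II that starts 117 bases before it; CANX, whose element lies at a different distance in each of its windows, is left out.

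Libraries of 6 h held between 3881841 and 8540815 counted reads and those of 24 h between 6646227 and 33070903, but RNAs of the U1 family took 0.0317% to 0.300% of counts at 6 h and 8.90% to 57.2% at 24 h. Protein-coding genes took 81.4% to 84.7% and 20.8% to 63.4%, respectively. The biological coefficient of variation was 10.6% at 6 h and 29.1% at 24 h, so changes of a given size were harder to call at 24 h. Of the HEK293 markers followed, VIM and NEFM are given here. The others and AGTR1, the gene of the transfected receptor, are not. Control libraries had 299 to 322 FPM of VIM and 358 to 525 of NEFM at 6 h. At 24 h they had 154 to 228 of VIM and 1274 to 1558 of NEFM. FPM are fragments per 1000000 counted in genes that passed the filter on low counts, scaled by trimmed mean of M values. HBB, the beta-globin gene, had no count in any control library of either time. All 36 members passed the filter on low counts at both times. A gene was called by the study's rule at a false discovery rate (FDR) under 0.05 in edgeR's quasi-likelihood test, a fold change above 1.5 and a mean above 5 FPM, and calls at the FDR alone are given as a second rule.

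HERPUD1 had about the same level in all conditions at 6 h and about 2.04-fold more in EGF than in control at 24 h. The gene lies at chr16:56966054-56978776 (GRCh37, plus strand). At 24 h the control libraries had 7.77, 13.4, 11.045 and 8.33 FPM of HERPUD1 and the AII libraries 11.2, 11.96, 11.1 and 9.87. The EGF libraries had 19.4, 25.2, 20.03 and 18.4 FPM of HERPUD1 and the AII+EGF libraries 22.3, 17.6 and 20.6. The 7 libraries with EGF thus all exceeded the 8 without, the lowest with EGF at 17.6 and the highest without at 13.4 FPM. These include the libraries of EGF against control, so this split is a description. For this and later splits by EGF over all libraries of a time, the share over all genes was not determined. At 6 h, HERPUD1 ranged from 19.1 to 22.5 FPM in control, from 19.2 to 20.6 in AII, from 17.3 to 19.9 in EGF and from 18.4 to 25.9 in AII+EGF, and these ranges overlapped.

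For HERPUD1 at 24 h, AII+EGF against AII shares no library with the comparison by which it was known. The log2 fold change was 0.87 (SE 0.19, 95% interval 0.48 to 1.26, n = 3 and 4), with the groups apart, but the adjusted p of edgeR's quasi-likelihood test was 0.12 and the gene was not called. An exact two-sided permutation test of the HERPUD1 difference of 9.09 FPM gave p = 0.0286, the smallest that 3 against 4 libraries allow, and 0.116 after adjustment over 81 such tests. That adjusted value is set by how many of the 81 tests reach their smallest p, so nothing is concluded from it. With a term for the library series (numbers up to 8 against above 8) the adjusted p was 0.033 by edgeR. DESeq2, fitted without that term, gave 0.0082. When each library of the groups compared was left out in turn, the adjusted p of edgeR without the term lay between 0.22 and 0.72. Against control, which shares its libraries with the known comparison, the log2 fold change of HERPUD1 in AII+EGF was 0.99 (SE 0.19) with an adjusted p of 0.054. The EGF against control value was 1.03 (SE 0.18). AII alone gave a HERPUD1 log2 difference of 0.12 (95% interval −0.25 to 0.49) and adding AII to EGF −0.04 (95% interval −0.43 to 0.35).

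The 24 h effect on HERPUD1 was compared with the 6 h effect in a joint fit of both tables. The log2 fold change of AII+EGF against AII was 0.86 at 24 h and 0.13 at 6 h in this fit, a difference of 0.73 (SE 0.21, unadjusted p = 0.0017, adjusted p = 0.29, edgeR). The difference was 0.93 for AII+EGF against control (SE 0.21, adjusted p = 0.071, edgeR), which shares the control libraries with the known comparison. For EGF against control it was 1.16, given without a test. At the FDR alone, no member passed for AII+EGF against AII (0.073% of 21932 genes tested did, and 0 members by DESeq2) or against control (0.123% of genes, 1 member by DESeq2). At an unadjusted p under 0.05, 3 members and 6.34% of all genes differed between times for AII+EGF against AII.

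Since the U1 share differed so much between times, levels across times were given as reads per 1000000 protein-coding reads. On this scale HERPUD1 was 24.8 ± 1.79 (SD, n = 4) in control at 6 h and 24.0 at 24 h, and in AII 24.0 and 26.2. In EGF it was 22.4 at 6 h and 47.9 at 24 h, and in AII+EGF 24.9 and 46.7. The HERPUD1 level of the cells without EGF therefore differed little between times and the cells with EGF stood apart at 24 h. Time point and table cannot be told apart.

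**Figure D2:**
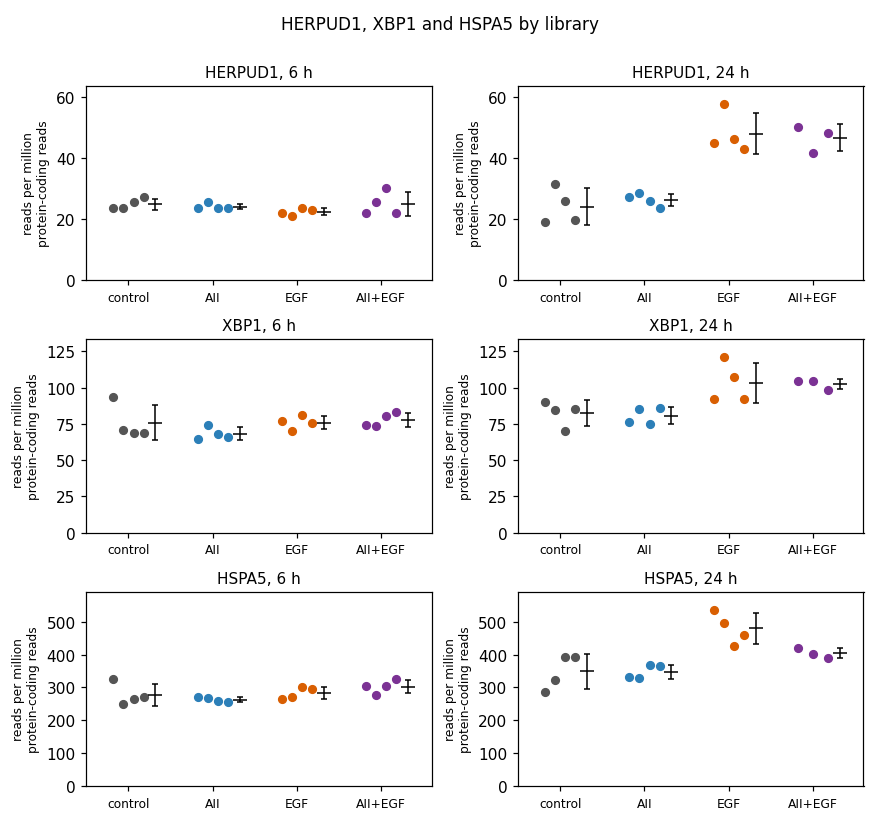
Reads per 1000000 protein-coding reads (vertical axis, from 0) of HERPUD1, XBP1 and HSPA5 at 6 h (left) and 24 h (right). Each point is 1 library, and bars are the mean ± SD of 4 libraries (3 for AII+EGF at 24 h). HERPUD1 lies between 41.7 and 57.7 in the 7 libraries with EGF at 24 h and between 18.9 and 31.6 in the 8 without. This split is a description, as EGF against control at 24 h contributed to the choice of members.

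XBP1, the transcription factor whose mRNA is spliced by ERN1, was also higher in the libraries with EGF at 24 h, by smaller differences than HERPUD1. The control libraries had 37.2, 35.9, 29.7 and 36.3 FPM of XBP1 and the AII libraries 31.4, 35.96, 32.1 and 36.02. The EGF libraries had 40.0, 52.8, 46.7 and 39.5 FPM of XBP1 and the AII+EGF libraries 46.2, 44.0 and 42.0. All 7 libraries with EGF again lay above the 8 without, which is a description for the same reason as for HERPUD1. The XBP1 log2 fold change of AII+EGF against AII was 0.38 (SE 0.13, unadjusted p = 0.0075), which did not pass over all genes (adjusted p = 0.94, edgeR). At 6 h the same XBP1 comparison gave 0.24 (SE 0.10, adjusted p = 0.17) and EGF against control 0.02 (SE 0.10, adjusted p = 0.94). Counts per gene do not separate spliced from unspliced XBP1.

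HSPA5, the ER chaperone BiP that holds the sensors inactive, had 118, 136, 168 and 168 FPM in control and 137, 139, 157 and 154 in AII at 24 h. It had 232, 217, 186 and 197 FPM in EGF and 186, 169.5 and 167 in AII+EGF. The lowest AII+EGF library of HSPA5 was above the highest AII library but slightly below the highest control library. The HSPA5 log2 fold change was 0.50 (SE 0.12) for EGF against control, 0.24 (SE 0.13, adjusted p = 0.97) for AII+EGF against control and 0.25 (SE 0.13, adjusted p = 1.00) for AII+EGF against AII. At 6 h, AII+EGF against AII gave 0.26 (SE 0.08, adjusted p = 0.076, edgeR) for HSPA5. That value passed with DESeq2, at an adjusted p of 0.045, and without the filter on low counts, at 0.029. It passed in 0 of 8 edgeR fits that left out 1 library, with adjusted p between 0.052 and 0.22. The 6 h value of HSPA5 was 0.05 (SE 0.08, adjusted p = 0.81, edgeR) for EGF against control. For AII+EGF against control it was 0.16 (SE 0.08, adjusted p = 0.31), and for AII against control −0.09 (SE 0.08).

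At 24 h the study's rule called 1 member, HERPUD1, for EGF against control, where 0.0316% of 22174 genes were called. The groups did not overlap, with EGF higher, for 5 members there (2.35% of all genes): HERPUD1, HSPA5 and XBP1 and, named after their values were seen, HSP90B1 and PDIA4. As that comparison contributed to the choice of members, nothing is read from these counts. AII+EGF against AII had 0 members called by edgeR at the FDR alone (0.0451% of all genes), DESeq2 called 1, and 5 members passed at an unadjusted p under 0.05 (4.28% of all genes). Among these 5 was DERL3, a gene of ERAD, which was lower, at −0.57 (SE 0.27, unadjusted p = 0.043, edgeR), and at −0.14 (SE 0.26) against control. DERL3 was named after its values were seen, and HSPA5 was not among these 5. In that comparison 5 members were higher without overlap (3.81% of all genes). Besides HERPUD1, XBP1 and HSPA5 these were ERN1 and DNAJB9, a co-chaperone, named after their values were seen, at 0.43 (SE 0.16, adjusted p = 1.00) and 0.62 (SE 0.27, adjusted p = 1.00) on the log2 scale. DNAJB9 was lower in AII than in control, by a log2 value of −0.53 (SE 0.25). Against control it was at 0.10 (SE 0.26) in AII+EGF and at −0.01 (SE 0.24) in EGF. AII+EGF against control had 0 members called at the FDR alone (0.0271% of all genes), DESeq2 called 1 and 6 passed at an unadjusted p under 0.05 (5.4% of all genes).

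As a group, the members moved little at 24 h. Their median log2 fold change was 0.04 for AII+EGF against AII, with 20 of 36 above 0, beside a median of −0.01 and 48.6% above 0 for all genes tested. For EGF against control the members' median was 0.10 with 25 above 0, beside a median of −0.0032 and 49.6% above 0 for all genes. HERPUD1 was thus far from the median of the set. The 95% intervals of the chaperone HYOU1 (−0.22 to 0.36) and of the channel subunit SEC61A1 (−0.21 to 0.30) for AII+EGF against AII left room for changes of about the size seen at 6 h.

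**Figure D3:**
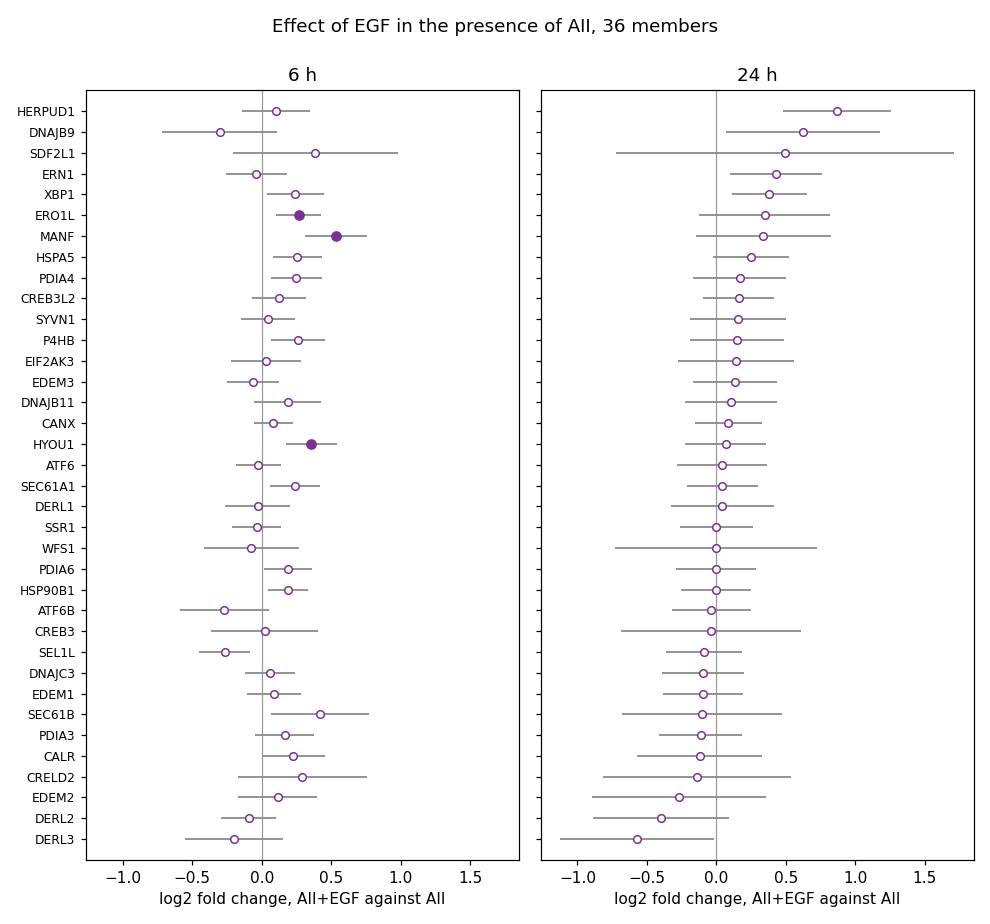
Log2 fold change of AII+EGF against AII (horizontal axis) for the 36 members at 6 h (left) and 24 h (right), ordered by the 24 h value. Lines are 95% intervals, and filled points passed an FDR under 0.05, which 3 members did at 6 h (MANF, ERO1L and HYOU1) and 0 at 24 h, where HERPUD1 has the largest value, 0.87.

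At 6 h EGF raised MANF, a stress-induced folding factor that is also secreted, and ERO1L, the oxidase that recharges the protein disulphide isomerases, with and without AII. MANF (chr3:51422722-51426828, GRCh37, plus strand) had 17.8, 21.2, 17.6 and 16.5 FPM in control and 17.7, 18.9, 19.8 and 20.2 in AII. It had 26.7, 27.2, 24.9 and 26.2 FPM in EGF and 31.8, 26.7, 25.6 and 26.8 in AII+EGF. All 8 libraries with EGF were above the 8 without. MANF rose by a log2 fold change of 0.52 (SE 0.11, adjusted p = 0.0039, edgeR) for EGF against control and of 0.53 (SE 0.11, adjusted p = 0.0028) for AII+EGF against AII. Those comparisons share no library. MANF passed in every fit that left out 1 library of the groups compared. The MANF value for AII+EGF against control was 0.59 (SE 0.11, adjusted p = 0.00099), a fold change of 1.51.

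ERO1L (chr14:53106633-53162618, GRCh37, minus strand) had 112, 123, 105 and 120.4 FPM in control and 126, 120.3, 104 and 126 in AII at 6 h. It had 169, 150.3, 153 and 157 FPM in EGF and 149, 145, 149.8 and 128 in AII+EGF. The libraries with EGF again lay above those without. ERO1L rose by 0.45 (SE 0.08, adjusted p = 0.00085, edgeR) for EGF against control and by 0.26 (SE 0.08, adjusted p = 0.048) for AII+EGF against AII on the log2 scale. The latter call was lost in 6 of 8 fits that left out 1 library, with adjusted p up to 0.14. The ERO1L difference of AII+EGF from EGF was −0.14 (95% interval −0.30 to 0.02, adjusted p = 0.69).

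HYOU1, a large ER chaperone and exchange factor for HSPA5, had 148, 118, 104 and 128 FPM in control, 130.3, 125, 112 and 111 in AII, 128, 144, 142 and 141 in EGF and 159, 152, 147 and 156 in AII+EGF at 6 h. The AII+EGF libraries of HYOU1 were above all AII libraries and overlapped the controls through 1 control library at 148. HYOU1 rose by 0.36 (SE 0.09, adjusted p = 0.014, edgeR) for AII+EGF against AII and by 0.30 (SE 0.09, adjusted p = 0.038) for AII+EGF against control. The call against AII held in 8 of 8 fits that left out 1 library. The call against control held in 1 of 8, with adjusted p up to 0.15. For EGF against control the HYOU1 value was 0.16 (SE 0.09, adjusted p = 0.32), and AII+EGF differed from EGF by 0.14 (SE 0.09, adjusted p = 0.70).

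**Figure D4:**
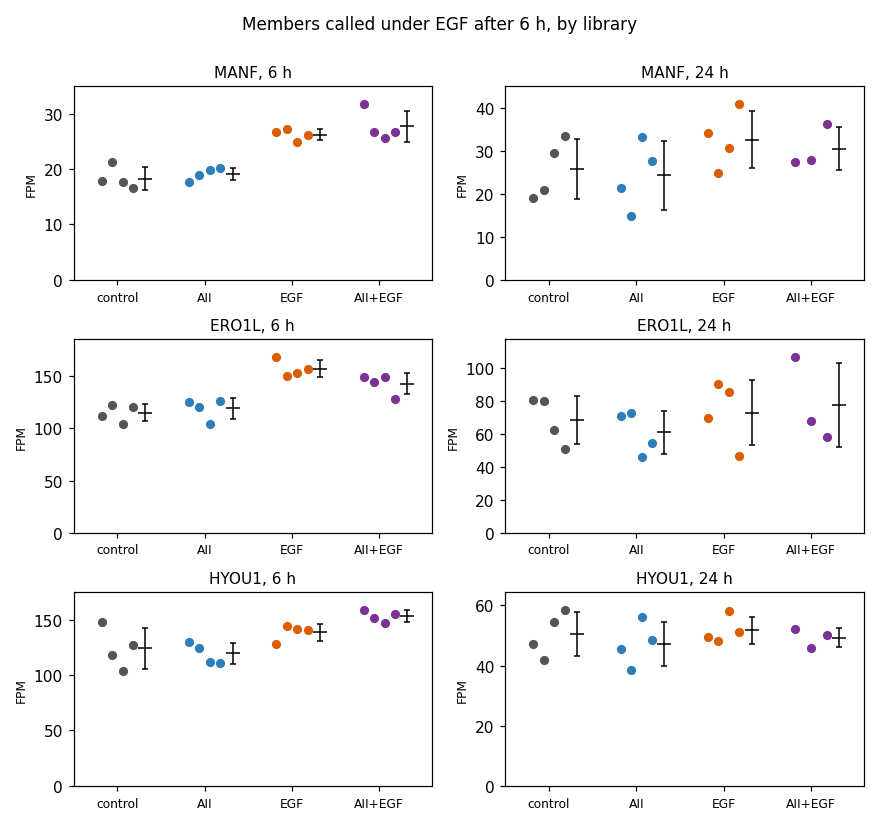
FPM (vertical axis, from 0) of MANF, ERO1L and HYOU1 at 6 h (left) and 24 h (right), where scales differ between panels. Each point is 1 library, and bars are the mean ± SD of 4 libraries (3 for AII+EGF at 24 h). At 6 h the MANF libraries with EGF lie between 24.9 and 31.8 and those without between 16.5 and 21.2, while at 24 h the groups overlap for all 3 genes.

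SEC61A1, the pore of the translocation channel, ranged from 199 to 261 FPM in control, from 238 to 293 in AII, from 267 to 309 in EGF and from 283 to 325 in AII+EGF at 6 h. SEC61A1 rose for AII+EGF against control by 0.35 on the log2 scale (SE 0.09, adjusted p = 0.014, edgeR). For EGF against control the SEC61A1 value was 0.27 (SE 0.09, adjusted p = 0.065), which passed in 5 of the other settings tried, with DESeq2 at 0.034. It passed in 2 of 8 fits that left out 1 library, with adjusted p up to 0.18. AII+EGF against AII gave 0.24 for SEC61A1 (SE 0.09, adjusted p = 0.11, edgeR). That value passed in 1 of 8 such fits, and its lowest adjusted p among the other settings was 0.018. EIF2AK3, the sensor PERK, had 16.7, 21.5, 24.1 and 21.5 FPM in control and 32.3, 25.6, 29.2 and 27.8 in EGF. EIF2AK3 rose by 0.44 (SE 0.12, adjusted p = 0.028) in EGF, but AII+EGF differed from AII by 0.03 (SE 0.12, adjusted p = 0.93). The EIF2AK3 call in EGF held in 4 of 8 fits that left out 1 library, with adjusted p up to 0.092. Against control EIF2AK3 was at 0.24 (SE 0.13, adjusted p = 0.99) in AII and at 0.27 (SE 0.12, adjusted p = 0.23) in AII+EGF. EDEM2, which trims mannose from misfolded glycoproteins, had 25.0, 16.6, 18.6 and 17.2 FPM in control and 13.2, 15.4, 13.9 and 13.3 in EGF. EDEM2 fell by 0.46 on the log2 scale (SE 0.13, adjusted p = 0.045) in EGF, but AII+EGF differed from AII by 0.11 (SE 0.14, adjusted p = 0.71) and from control by −0.18 (SE 0.13, adjusted p = 0.52). Without the control library at 25.0 the EDEM2 change was −0.32 with an adjusted p of 0.18.

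In counts, the study's rule called 0 members for EGF against control at 6 h (1.73% of 18618 genes), by edgeR and by DESeq2. At the FDR alone 3 rose (3.6% of genes) and 1 fell (2.37%). For AII+EGF against control the study's rule called MANF (1.95% of genes), and 4 members rose at the FDR alone (4% of genes). For AII+EGF against AII the study's rule called 0 members (1.87% of genes; DESeq2 also 0) and the FDR alone 3, all higher (3.92% of genes). There, 9 members were higher without overlap, beside 7.12% of all genes. Averaged over AII, which uses all 16 libraries and was added after the data were seen, EGF raised 7 members (7.66% of genes) and lowered 2 (5.94%). Raised were MANF, ERO1L, HYOU1 and SEC61A1 and, named after their values were seen, HSP90B1, DNAJB11 and SEC61B. Lowered were ATF6B and SEL1L, also named after their values were seen.

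The members' median log2 fold change at 6 h was 0.07 for EGF against control, with 24 of 36 above 0, and 0.11 for AII+EGF against AII, with 25 above 0. For all genes tested the medians were −0.01 and −0.02, with 48.0% and 47.3% above 0. Without 1 control library, replicate 1, the first median was 0.10. It was the highest of the 4 control libraries for 17 of the 36 members, XBP1 (79.6 FPM against 56.7 to 58.1) and HSPA5 (277 against 204 to 223) among them, and the lowest for 13, as was 1 other control library. Without it, 6 members passed the FDR for AII+EGF against control in place of 4, and 2 in place of 4 for EGF against control.

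**Figure D5:**
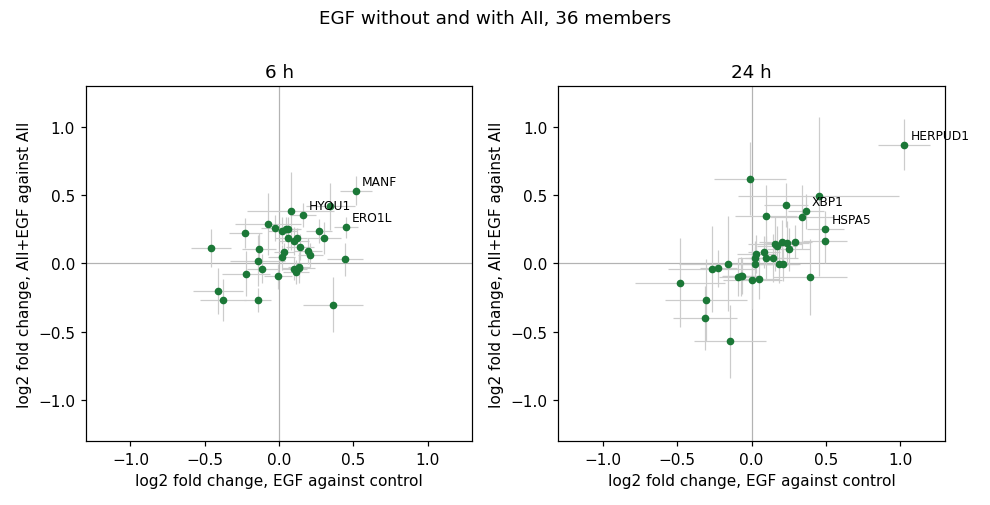
Log2 fold change of EGF against control (horizontal axis) and of AII+EGF against AII (vertical axis) for the 36 members at 6 h (left) and 24 h (right), with bars of 1 SE. The axes share no library. MANF is at 0.52 and 0.53 at 6 h, and HERPUD1 at 1.03 and 0.87 at 24 h.

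AII alone called no member at either time. At 6 h, edgeR and DESeq2 called 0 members at the FDR alone, as of all genes (0%), and 5 members passed at an unadjusted p under 0.05, beside 4.54% of all genes. At 24 h both tools called 0 members (0% of all genes by edgeR), and 1 passed at an unadjusted p under 0.05, beside 2.49%. The log2 difference between AII and control was 0.06 for MANF (95% interval −0.17 to 0.29) and 0.05 for ERO1L (95% interval −0.12 to 0.21) at 6 h. Adding AII to EGF also called 0 members with both tools at 6 h (0% of all genes; 2 members and 7.26% of genes at an unadjusted p under 0.05) and at 24 h (0%; 2 members and 3.37%). For MANF at 6 h this difference was 0.08 (95% interval −0.13 to 0.29).

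At 24 h MANF had 25.7 ± 6.93 FPM (SD, n = 4) in control, 24.3 ± 7.92 in AII, 32.7 ± 6.72 in EGF and 30.6 ± 5.04 (n = 3) in AII+EGF, a wider spread in each group than at 6 h, and these groups overlapped. The AII+EGF against AII value of MANF was 0.34 (95% interval −0.15 to 0.83, adjusted p = 1.00, edgeR), which includes the 6 h value. The difference between the MANF effects of 24 h and 6 h was −0.23 (SE 0.27, adjusted p = 0.98). SDF2L1, an ER co-chaperone, had the widest errors among the members named here, with 0.664 to 5.30 FPM in AII and an AII+EGF against AII value of 0.49 (SE 0.58, adjusted p = 1.00) at 24 h. Against control the SDF2L1 value of AII+EGF was 0.49 (SE 0.29, adjusted p = 0.38) at 6 h and 0.55 (SE 0.58, adjusted p = 1.00) at 24 h.

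Between times, control levels in reads per 1000000 protein-coding reads were higher at 24 h without overlap for 6 of 36 members (16.6% of 11542 protein-coding genes above 5 on this scale at 6 h) and lower for 7 (21.2%). MANF, at 22.1 at 6 h and 60.9 at 24 h, had the largest increase among the members, 1.46 on the log2 scale. SEC61A1 went from 286 to 180.3 and EDEM2 from 23.3 to 14.3, also without overlap. The members' median log2 difference was −0.06, as was that of all these genes. No test was made, since each time point is its own table. Together the members took 0.506% to 0.568% of protein-coding counts at 6 h and 0.559% to 0.656% at 24 h.

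Per kilobase of the canonical transcript, HSP90B1 (239 to 264 FPM per kb), CALR (164 to 288) and CANX (159 to 190), a chaperone of the HSP90 family and the lectin chaperones, had the highest levels in control libraries at 6 h, and their ranges overlapped in part. HSPA5 was at 51.9 to 70.6 FPM per kb and HERPUD1 at 6.71 to 7.88. ERN1 had the lowest mean of all 36, at 3.31 to 3.64 FPM per kb, overlapping with DNAJB9 at 2.58 to 4.74. These are levels, not differences, and FPM per kb of HERPUD1 and HSPA5 cannot be set against those of 24 h because of the U1 share.

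Other genes were followed in lists chosen with results of these data known, so counts and values of these lists are a description. Of 18 tested genes of the PERK and ATF4 branch at 6 h, 4 rose and 0 fell at the FDR alone for AII+EGF against AII, where 3.92% of all genes rose, with a list median of 0.11 on the log2 scale. STC2, a secreted glycoprotein induced by this branch, rose from 26.7 to 48.8 FPM (log2 fold change 0.87, SE 0.11, adjusted p = 2.2e-05, edgeR), and CEBPB and ATF3, transcription factors, rose by 0.65 and 0.46. At 24 h 2 of 20 rose and 0 fell for AII+EGF against AII (0.0451% of all genes rose), with a median of 0.60. ASNS, asparagine synthetase, rose from 24.8 to 63.4 FPM (1.35, SE 0.18, adjusted p = 0.0016, edgeR). ATF4, the transcription factor whose translation PERK favours, rose from 117 to 194 FPM (0.74, SE 0.11, adjusted p = 0.0049). EIF2AK3, the gene of PERK, differed by 0.03 (SE 0.12) at 6 h and 0.14 (SE 0.20) at 24 h in this comparison. Whether PERK acted on the listed genes was not tested.

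Of 15 heat shock chaperones of the cytosol and mitochondria, 10 rose and 0 fell at 6 h for AII+EGF against AII, beside the 3.92% of all genes, with a median of 0.40. HSPH1, an exchange factor for cytosolic HSP70, rose from 70.6 to 123 FPM (0.80, SE 0.08, adjusted p = 1.1e-06), and HSPA8, the constitutive HSP70, by 0.61 (SE 0.06, adjusted p = 1.1e-07). At 24 h 0 of 15 passed by edgeR, 2 had an unadjusted p under 0.05, and the median was 0.02. Of 68 other ER genes tested at 6 h, 4 rose and 0 fell for AII+EGF against AII, a share near the 3.92% of all genes, with a median of 0.02. At 24 h 0 of 69 passed by edgeR, 8 had an unadjusted p under 0.05, and the median was 0.10.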

How the data were processed

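Total RNA of HEK293 cells was depleted of ribosomal RNA and sequenced as paired ends. Per the labels and the study's methods, the authors trimmed reads with cutadapt 1.8.1 (Trim Galore), aligned them to hg19 with TopHat2 2.0.14 and assigned them to Ensembl genes with featureCounts 1.4.6; the series text names HISAT2, and the strand setting is not given in the sources used here. The deposited values are raw counts of 57773 genes, 1 table per time point. At 24 h, 8 of 15 column names carry the word filtered.

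Groups came from the labels, which give no replicate numbers. Each table was fitted with edgeR 4.0.16 (R 4.3.3), TMM scaling and filterByExpr, over 4 conditions, with Benjamini-Hochberg adjustment over all genes tested. A joint fit of both tables compared effects between times. FPM are TMM-scaled. The members and lists were chosen with earlier results of these data known. Genes were named if fixed (HERPUD1, HSPA5, XBP1), if called, or if among the 2 largest changes of members in EGF or AII+EGF against control at either time (SDF2L1, in AII+EGF at both). Alternatives were DESeq2 1.42.0, its size factors, no filter, protein-coding genes alone, a library series term, other thresholds and leaving out each library. The edgeR fit was tested on simulated data.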

Additional observations from a re-analysis of the deposited data

Results flagged for a closer look

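In the control libraries of 6 h, XBP1 was at 79.6 FPM in replicate 1 and at 58.1 in the next highest, a gap of 0.941 of the group's range. In those of 24 h, XBP1 was at 29.7 FPM in replicate 3 and at 35.9 in the next lowest, a gap of 0.834 of the range. These were 2 libraries standing apart among 70 groups of 4 for the named genes, and 11 of 252 over all 36 members, where chance alone sets apart about 1 in 20 groups.

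For HERPUD1 the EGF against control effect at 24 h exceeded that at 6 h by 1.16 on the log2 scale in the joint fit. This comparison contributed to the choice of members, so the value is a description.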

How the results depend on the processing

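The HERPUD1 difference between AII+EGF and AII or control at 24 h kept its direction in every fit tried, but its call depended on the setting. For AII+EGF against AII and against control, edgeR called 0 members, and 1 (HERPUD1) with DESeq2, without the filter, with the library series term, and with that term among protein-coding genes; against control also among protein-coding genes alone. HERPUD1 against AII was at 0.86 with DESeq2, 0.88 without the filter and 0.90 with the series term. Its 24 h minus 6 h difference for AII+EGF against control was called in 1 member with DESeq2, among protein-coding genes and with the series term. Calls against control share the control libraries with the comparison by which HERPUD1 was known, so they are no independent measure. EGF against control at 24 h contributed to the choice of members, so its counts are a description from which nothing is read: 1 member, 2 with DESeq2 and 3 with the series term among protein-coding genes at the FDR alone, 0 at an FDR of 0.01, and 0 to 1 without 1 library.

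At 6 h, counts for EGF against control were 0 by the study's rule (0 to 1 without 1 library) and 4 at the FDR alone (2 at 0.01, 2 to 4 without 1 library). For AII+EGF against control they were 1 (0 among protein-coding genes with or without the series term, 0 to 1 without 1 library) and 4 (1 at 0.01, 2 to 6 without 1 library). For AII+EGF against AII they were 0 and 3 (6 without the filter, 6 among protein-coding genes with the series term, 1 at 0.01, 2 to 5 without 1 library). The average over AII gave 9, and 4 to 13 without 1 library. Without 1 library, AII+EGF against control at 24 h had 0 to 1 members called, its 24 h minus 6 h difference 0 to 1, and AII+EGF against AII at 24 h 0. Median log2 fold changes at 6 h ranged from 0.019 to 0.098 for EGF against control, from 0.045 to 0.095 for AII+EGF against control and from 0.093 to 0.14 for AII+EGF against AII. Log2 values close to 0 changed sign when 1 library was left out: HERPUD1 at 6 h (−0.0094 to 0.17 against AII, −0.075 to 0.10 against control), and for EGF against control at 6 h HSPA5 (−0.0018 to 0.15) and XBP1 (−0.019 to 0.15).

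No paired analysis was possible because libraries carry no replicate number in the labels that groups share, and the numbers used here only name libraries in their order of deposit. The library series term, the block that was fitted, follows title numbers and is not stated to be a batch. HERPUD1 rested on 75 to 177 counts per library at 6 h and 91 to 386 at 24 h, and SDF2L1 on 9 to 76 at 24 h, which limits its precision.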
